A study of Mus musculus and blank sample with 768 samples.

Results

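The data described here are single mouse lymph node endothelial cells, 1 to a well, with at least 1 read of Prox1. The wells were chosen by that read within lymph node pools A, B and C, after wells with fewer than 50000 reads in genes, fewer than 1000 detected genes or over 25% mitochondrial reads were set aside. Of the 768 wells sequenced in the whole study, 78 chosen wells came from the GFP+ gate (32 in pool A, 29 in pool B, 17 in pool C) and 27 from the GFP- gate (14, 12 and 1). Both gates were sorted as CD45- CD31+ cells, so they lacked the leukocyte protein encoded by Ptprc and carried the endothelial adhesion protein encoded by Pecam1. The labels call the GFP+ cells endothelial cells of the Csf1r lineage and the GFP- cells endothelial cells. The driver and reporter behind GFP, the strain, age and number of mice, and whether the nodes came from tumour-bearing mice, are not given in the sources used here. Messenger RNA of each cell was amplified as full-length cDNA by SMART-seq2 and sequenced without molecular identifiers.

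Prox1 encodes the transcription factor that sets and keeps lymphatic endothelial identity. In a lymph node, lymphatic endothelial cells line the sinuses through which lymph flows. Those on the outer wall of the subcapsular sinus, the ceiling, are known for Ackr4, a decoy receptor that removes the chemokines CCL19 and CCL21. Those on the inner wall, the floor, lie against the lymphocyte-rich tissue and are known for the adhesion molecule MAdCAM-1 (Madcam1) and the integrin alpha-IIb chain (Itga2b), and other cells line the cortical and medullary sinuses. The question asked of the data was how Prox1+ cells of the GFP+ and GFP- gates differ once wells without Prox1, most of them with Cd34 in the GFP- gate, are left out.

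To show 1 gene of each side, the 250 bases upstream of the RefSeq start of Madcam1, which marked the GFP+ wells, and of Cd36, which marked the GFP- wells, are printed 5′ to 3′ from RefSeq GRCm38.p6. They lie at chr10:79664309-79664558 on the plus strand and chr5:17835897-17836146 on the minus strand. The Cd36 window lies inside the span that GENCODE gives the gene, so it is not upstream of the whole gene. Capitals mark matches, on either strand, to the letters AGATAA, known from sites of GATA factors, or GGAAGT (from ETS factors), AACAAT (from SOX factors) or GTAAACA (from forkhead factors).
Madcam1: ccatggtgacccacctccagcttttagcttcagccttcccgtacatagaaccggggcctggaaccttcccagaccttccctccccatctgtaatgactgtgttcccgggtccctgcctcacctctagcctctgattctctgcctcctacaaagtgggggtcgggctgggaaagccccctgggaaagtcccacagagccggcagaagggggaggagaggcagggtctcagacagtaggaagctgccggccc
Cd36: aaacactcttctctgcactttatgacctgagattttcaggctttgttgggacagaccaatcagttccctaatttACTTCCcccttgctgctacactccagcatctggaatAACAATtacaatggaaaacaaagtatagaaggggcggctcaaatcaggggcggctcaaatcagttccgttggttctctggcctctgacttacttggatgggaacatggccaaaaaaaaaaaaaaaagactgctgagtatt
The Madcam1 window held 0 matches, and the Cd36 window held 1 ETS and 1 SOX match. Of 32851 windows of this length, 9.99% held the GATA letters, 19.7% the ETS letters, 9.42% the SOX letters and 3.17% the forkhead letters. A match is a description of the letters and not of binding.

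Depth was similar in the 2 gates. The GFP+ wells held 65814 to 2268659 reads in genes (median 958436) and the GFP- wells 69763 to 1833137 (median 839804), with medians of 2845 and 2751 genes and 1.93% and 2.22% mitochondrial reads. Levels are reads of a gene scaled to 1000000 reads in genes (CPM), summed over the wells of a gate, with the exact Poisson 95% interval in parentheses, and ratios are log2 of CPM plus 1, GFP+ over GFP-. No label names an animal, so each gate is 1 sample, no difference was tested, and intervals cover counting error only. Reads were not scaled by transcript length, so levels are compared between gates and not between genes.

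Prox1 (chromosome 1, 190118035 to 190170714, minus strand) chose the wells, and its values only describe the choice. It was at 389.2 CPM (384.8 to 393.6) in GFP+ wells and 435.97 CPM (427.4 to 444.7) in GFP- wells, a log2 ratio of -0.16. Single wells ran from 0.476 to 3024 CPM with a median of 366.1 in the GFP+ gate and from 1.01 to 1136 CPM with a median of 216.7 in the GFP- gate, so the gates overlapped over nearly their whole range. Prox1+ wells were 78 of 98 GFP+ wells past the filter and 27 of 74 GFP- wells. Tumour macrophages, which should lack the gene, had a Prox1 read in 0 of 81 wells (at most 4.45%, exact binomial) at a median of 867486 reads, and the 2 blank wells, with 59 and 82 reads, had none. The macrophages were not in a lymph node pool and the blank wells were in pool D. Stray Prox1 reads within pools A to C were therefore not measured. At the threshold, 7 wells of each gate held under 10 Prox1 reads. The 7 GFP+ wells among them had Madcam1 at 1127 to 2350 CPM in 6 wells and at 2.22 CPM in 1 well, which held Itga2b at 690.3 CPM. Of the 7 GFP- wells, 3 with 1 Prox1 read each held Cd34 at 580.3 to 1898 CPM and Ackr4 at 0, whereas 3 others held Ackr4 at 391.5 to 1293 CPM. Just outside the threshold, with 0 Prox1 reads, 17 of 20 GFP+ wells held at least 10 CPM of Madcam1, and 41 of 47 GFP- wells held at least 10 CPM of Cd34, a marker of blood vessels. Cd34 also reached 10 CPM in 10 of the 27 Prox1+ GFP- wells, so it does not by itself tell blood from lymphatic wells here.

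Of the genes behind the sort, Pecam1 was at 621.3 CPM (615.7 to 626.96) in GFP+ wells and 1374 CPM (1359 to 1389.5) in GFP- wells (log2 ratio -1.14), with reads in 72 of 78 GFP+ and 27 of 27 GFP- wells. Ptprc had 1 read in the GFP+ wells and 0 in the GFP- wells. By a limit of 3 wells of the total, 0 of 27 allows a share of up to 11.1% of GFP- wells, and the upper end of the exact binomial 95% interval is 12.8%. Csf1r, which encodes the receptor for the growth factor CSF1 and names the lineage of the GFP+ gate, was at 3.58 CPM (3.17 to 4.03) in GFP+ wells and 0.266 CPM (0.0977 to 0.58) in GFP- wells. It had a read in 30 of 78 GFP+ and 3 of 27 GFP- wells, or in 17.1% and 3.85% of wells thinned to 100000 reads, and reached 10 CPM in 7 GFP+ and 0 GFP- wells. The median well of each gate was at 0, and the highest GFP+ well was at 1033 CPM. That well, in pool C, had the fewest reads of the gate (65814) and 0 reads of Madcam1. The next highest GFP+ well was at 90.4 CPM.

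Of the 4 marker genes, Madcam1 and Itga2b were higher in GFP+ wells and Ackr4 and Pkhd1l1 in GFP- wells. Madcam1 (chromosome 10, 79664559 to 79668537, plus strand) ran from 0 to 4795 CPM with a median of 1299 in GFP+ wells and from 0 to 2652 CPM with a median of 0 in GFP- wells. All but 5 GFP+ wells had a read of it, and 21 of 27 GFP- wells had none. Summed, it was at 1528 CPM (1519 to 1537) in GFP+ wells and 225.4 CPM (219.2 to 231.7) in GFP- wells, a log2 ratio of 2.76, and shares of wells with a read were 93.6% (85.7% to 97.9%) and 22.2% (8.62% to 42.3%), with exact binomial 95% intervals. Itga2b (chromosome 11, 102453297 to 102470122, minus strand) ran from 0 to 2879 CPM with a median of 412.8 in GFP+ wells and from 0 to 330.1 CPM with a median of 0 in GFP- wells. It was at 675.4 CPM (669.5 to 681.2) in GFP+ wells and 22.1 CPM (20.2 to 24.1) in GFP- wells (log2 ratio 4.87), with reads in 83.3% (73.2% to 90.8%) and 18.5% (6.3% to 38.1%) of wells. Thinned to equal depth, the shares were 93.4% and 19.2% for Madcam1 and 76.3% and 15.4% for Itga2b.

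Ackr4 (chromosome 9, 104084157 to 104126933, minus strand) lay the other way. It ran from 0 to 3896 CPM with a median of 391.5 in GFP- wells, and in the GFP+ gate 1 read in 1 well was found. Summed, it was at 0.0132 CPM (0.000333 to 0.0733) in GFP+ wells and 699.4 CPM (688.5 to 710.4) in GFP- wells, with reads in 1.28% (0.0325% to 6.94%) and 66.7% (46% to 83.5%) of wells. The log2 ratio was -9.43, or -15.70 without the pseudocount, with a counting interval whose upper end was -13.22. Pkhd1l1 (chromosome 15, 44457494 to 44601369, plus strand), which encodes the large membrane protein fibrocystin-L, ran from 0 to 1520.0 CPM with a median of 0 in GFP- wells and also had 1 read in the GFP+ gate. It was at 216.7 CPM (210.6 to 222.8) in GFP- wells, with reads in 1.28% (0.0325% to 6.94%) and 37% (19.4% to 57.6%) of GFP+ and GFP- wells, a log2 ratio of -7.75, or -14.01 without the pseudocount (-19.31 to -11.53). Pkhd1l1 thus took up a smaller set of GFP- wells than Ackr4, and 8 of the 9 wells at 10 CPM or more of Pkhd1l1 were also at 10 CPM or more of Ackr4.

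**Figure D1:**
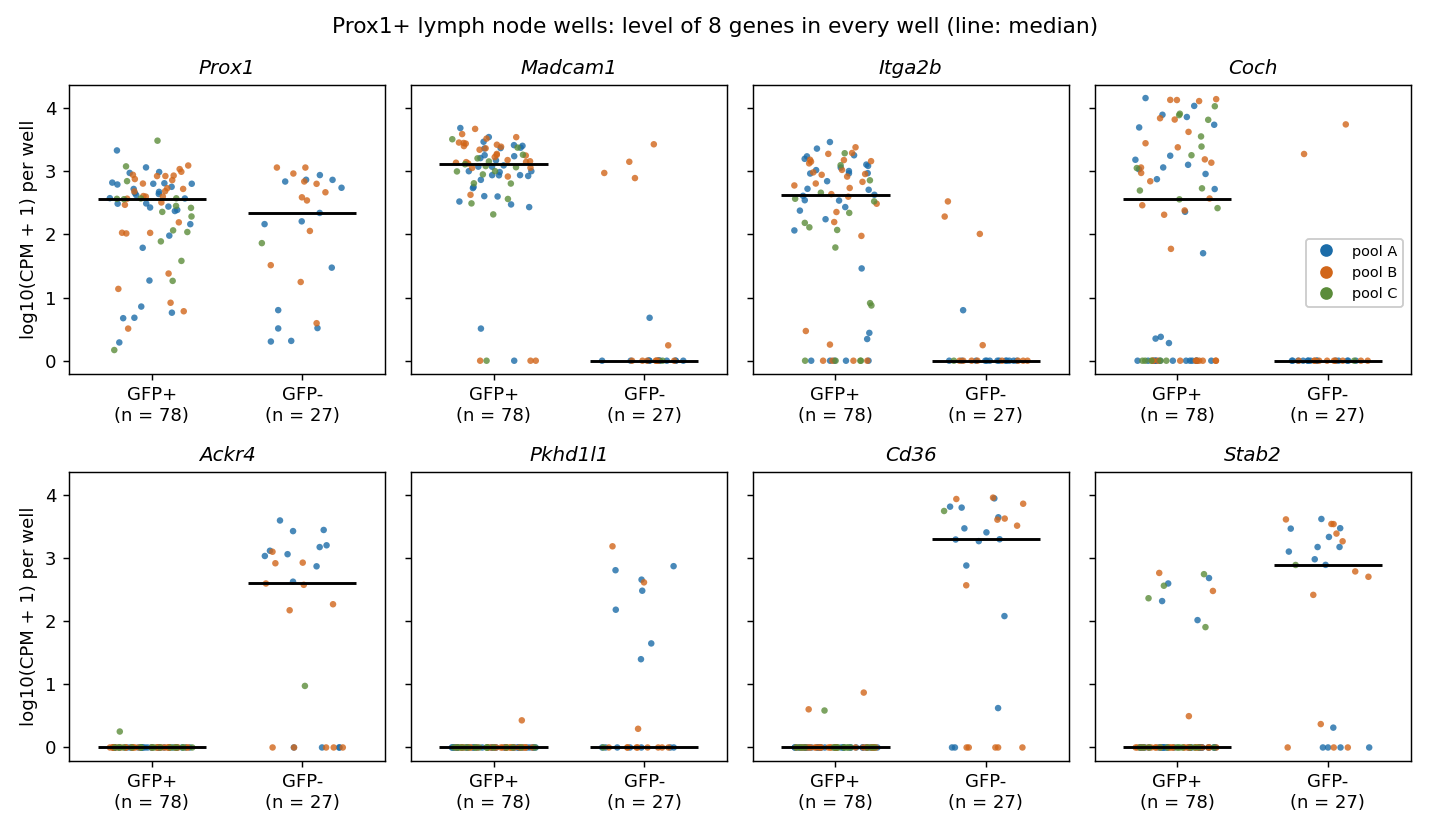
Level of 8 genes in every Prox1+ lymph node well, as log10 of CPM plus 1 on the vertical axis, with GFP+ wells (78) left and GFP- wells (27) right in each panel. Points are wells coloured by pool and spread sideways for display, and lines are medians. Madcam1 and Itga2b fill the GFP+ side, Ackr4, Pkhd1l1 and Cd36 stay below 10 CPM in all 78 GFP+ wells, and the GFP- wells high in Madcam1 are all from pool B.

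Counted well by well at 10 CPM or more, 72 of 78 GFP+ wells held Madcam1, 59 held Itga2b and 54 held both. In this gate 77 wells held Madcam1 or Itga2b with neither Ackr4 nor Pkhd1l1, and 1 well held none of the 4 genes. Of the 27 GFP- wells, 17 held Ackr4 or Pkhd1l1 alone, 4 held Madcam1 or Itga2b alone, 1 held Madcam1 together with Ackr4 and 5 held none of the 4. No GFP+ well reached 10 CPM of Ackr4 or Pkhd1l1.

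The GFP- wells differed between pools. In pool A, 10 of 14 GFP- wells held at least 10 CPM of Ackr4, 7 held Pkhd1l1, and 0 held Madcam1 or Itga2b. In pool B, 7 of 12 held Ackr4, 2 held Pkhd1l1, 4 held Madcam1 and 3 held Itga2b. All GFP- wells at 10 CPM or more of Madcam1 or Itga2b were therefore pool B wells, and the ratio of Madcam1 was 10.32 in pool A and 2.13 in pool B. For Itga2b it was 9.09 and 4.20, whereas Ackr4 was at -10.14 and -8.34. The only pool A GFP- wells with a read of Madcam1 and of Itga2b held 3.78 and 5.30 CPM. The only Ackr4 read of the GFP+ gate was in pool C. The sizes of the pool A ratios, and of the pool B ratio of Ackr4, therefore depend on the pseudocount. Pool C held 1 GFP- well and gave no comparison of its own. What a pool stands for is not given in the sources used here, and the part of the pool in these values was not tested.

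**Figure D2:**
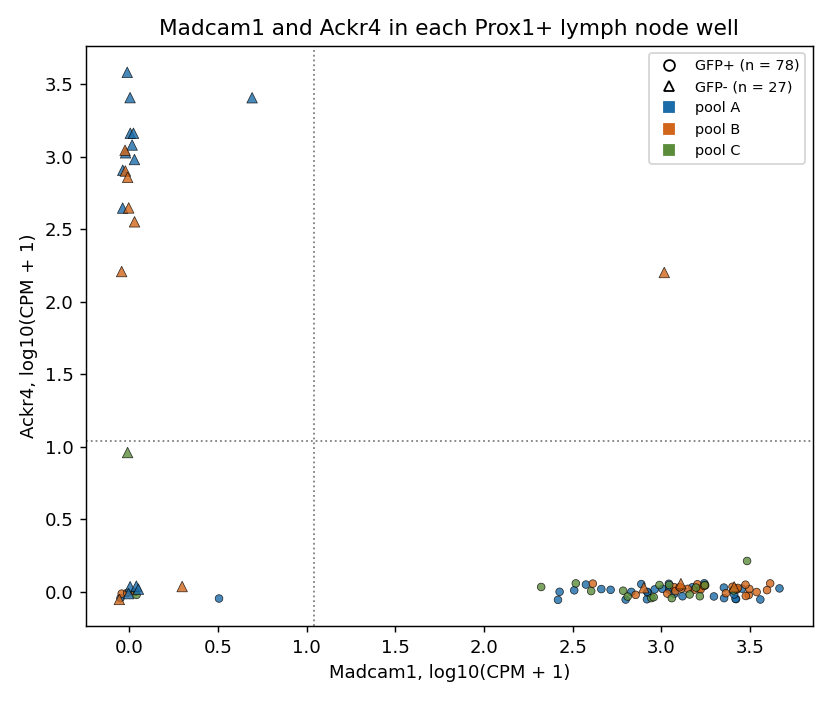
Ackr4 against Madcam1 in each Prox1+ lymph node well, both as log10 of CPM plus 1, with circles for GFP+ and triangles for GFP- wells and colours for pools. Points are jittered slightly and dotted lines mark 10 CPM. Of all wells, 1, a GFP- well of pool B, lies above 10 CPM on both axes.

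The 4 GFP- wells at 10 CPM or more of Madcam1 were chosen for that value, so their other levels are a description. They held Madcam1 at 1402, 773.5, 2652 and 931.9 CPM. In the same order, the first 3 held Postn at 1039, 577.2 and 1084 CPM and C3 at 3168, 1562 and 3828 CPM. These 3 had 0 reads of Ackr4, Pkhd1l1 and Cd36. The last had the most Prox1 reads of the gate (1692) and held Ackr4 at 147.04 CPM and Cd36 at 366.6 CPM beside Coch at 1861 CPM. It also held C3, at 705 CPM, but had 0 reads of Postn. Of 10 sinus floor genes these 4 wells held 6, 7, 6 and 6 at 10 CPM or more. The 5 GFP- wells with none of the 4 markers were also uneven. Of these 5, 3 were the wells with 1 Prox1 read and high Cd34, 1 held Stab2 at 4114 CPM and Cd36 at 1835 CPM on 69763 reads, and the pool C well held Cd36 at 5504 CPM and Mmrn1 at 3359 CPM.

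Across all genes, 9139 were measured, meaning 1 CPM or more with reads in 10% or more of the wells of either gate. Of these, 1533 (16.8%) were at least 2-fold higher and 1505 (16.5%) at least 2-fold lower in GFP+ wells, both by summed CPM and by the mean of per-well CPM. The median log2 ratio of all measured genes was 0.00. Without pool B the number higher was 2370, and with no filter on low genes 3562 were higher and 2516 lower. A narrower rule asked that the higher gate reach 20 CPM with reads in 40% of its wells, that the shares of wells differ by 25 points, and that pools A and B share the direction. It was met by 1.46% of measured genes on the higher side and 1.79% on the lower side, and the 12 most extreme ratios of each side are described next.

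Among the genes higher in GFP+ wells, 2 had 0 reads in all 27 GFP- wells, with the limits given above for Ptprc. Clec4g (chromosome 8, 3707064 to 3720651, minus strand) encodes a lectin known from sinus endothelium. It ran from 0 to 4322 CPM with a median of 0 in GFP+ wells, with reads in 35 of 78, and was at 332.7 CPM (328.6 to 336.8), at least 2499-fold higher against a floor of 3 reads over the gate. Such bounds, here and below, cover the counting of reads and not the sampling of wells. They are not limits on the difference between cell populations. Cfp (chromosome X, 20925454 to 20931555, minus strand), the properdin gene of the complement system, ran from 0 to 1442 CPM with a median of 8.44, with reads in 43 of 78 wells, and was at least 1334-fold higher at 177.6 CPM. Chrnb4 (chromosome 9, 55028154 to 55048779, minus strand), a nicotinic acetylcholine receptor subunit gene, was at 222.03 CPM in 42 GFP+ wells and had 1 read in the GFP- gate, a log2 ratio of 7.74, or 12.29 without the pseudocount (9.81 to 17.59). These 3 genes were found in 44.9%, 55.1% and 53.8% of GFP+ wells.

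Postn (chromosome 3, 54361109 to 54391037, plus strand), the gene of the matrix protein periostin, was the most widely present of the 12. It ran from 0 to 10016 CPM with a median of 2395 in GFP+ wells and from 0 to 1084 CPM with a median of 0 in GFP- wells, with reads in 76 of 78 GFP+ and 4 of 27 GFP- wells. Summed, it was at 2655 CPM (2643 to 2666) in GFP+ wells and 89.3 CPM (85.5 to 93.3) in GFP- wells (log2 ratio 4.88, 11.15 in pool A and 4.10 in pool B). The only pool A GFP- well with Postn held 14.3 CPM of it on 69763 reads, so the size of the pool A ratio depends on the pseudocount. Astn1, a neuronal adhesion gene, was at 407.9 and 14.9 CPM with reads in 62 of 78 GFP+ and 2 of 27 GFP- wells (log2 ratio 4.69). The transcription factor gene Zeb2 was at 152.9 and 4.08 CPM in 32 and 3 wells (log2 ratio 4.92), and the transporter gene Slc16a9 at 78.9 and 1.64 CPM in 34 and 2 wells (4.92). Cd44, the hyaluronan receptor gene, was at 120.6 and 5.33 CPM in 35 and 2 wells (4.26). The phosphodiesterase gene Pde4d was at 154.1 and 7.68 CPM in 45 and 4 wells (4.16), Pthlh, a parathyroid hormone-like peptide gene, at 96.9 and 4.7 CPM in 34 and 1 wells (4.10), and the heparan sulfatase gene Sulf1 at 335.6 and 22.5 CPM in 39 and 4 wells (3.84). Itga2b (4.87), described above, completes the 12. Apart from Postn, Astn1 and Itga2b, the genes were found in 41.03% to 57.7% of GFP+ wells.

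The 12 genes lower in GFP+ wells each had reads in 0 to 3 of the 78 GFP+ wells. Cd36 (chromosome 5, 17781690 to 17888801, minus strand), a fatty acid transporter and scavenger receptor gene, ran from 0 to 8957 CPM with a median of 1964 in GFP- wells, where 20 of 27 had a read. In the GFP+ gate 3 wells had a read and the highest was at 6.38 CPM. Summed, it was at 0.079 CPM (0.029 to 0.172) in GFP+ wells and 2617 CPM (2596 to 2638) in GFP- wells. The log2 ratio was -11.24, the lowest of the rule with the pseudocount of 1 CPM. That rank depends on the pseudocount, as the GFP+ level of Cd36 was far below 1 CPM. Gdf10, a growth factor gene of the TGF-beta superfamily, was at 732.3 CPM in 18 GFP- wells against 1 read in the GFP+ gate, a log2 ratio of -9.50, or -15.76 without the pseudocount (-21.07 to -13.29). The fatty acid carrier gene Fabp4 was at 353.5 CPM in 14 GFP- wells, also against 1 read, a log2 ratio of -8.45, or -14.71 without the pseudocount (-20.02 to -12.23).

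Another 3 genes had 0 reads in all 78 GFP+ wells, which allows a share of up to 3.85% (3 wells of 78), or 4.62% by the exact binomial interval. Aqp1, the aquaporin-1 water channel gene, was at 497.2 CPM in 11 GFP- wells, at least 12594-fold lower in GFP+ wells. Cdh13, the T-cadherin gene, was at 406.6 CPM in 14 GFP- wells and at least 10298-fold lower. Tinagl1, a matrix protein gene, was at 370.1 CPM in 19 GFP- wells and at least 9376-fold lower. These bounds set the GFP+ level at 3 reads over the gate and do not cover the share of wells just given. With Ackr4, the remaining genes of the 12 were Cd34 (0.803 and 362.9 CPM, log2 ratio -7.66), the chemokine scavenger receptor gene Ackr3 (2.07 and 421.9 CPM, -7.11), the heparan sulfate enzyme gene Hs3st1 (1.29 and 280.8 CPM, -6.94), the matrix gene Prelp (1.79 and 307.1 CPM, -6.79) and Id3, a target of BMP signalling (3.28 and 407.1 CPM, -6.58). Each of these 5 was found in 1 to 3 GFP+ wells and in 11 to 15 GFP- wells. Cd34 and Aqp1 are also genes of blood endothelium. In the 3 GFP- wells with 1 Prox1 read and high Cd34, Aqp1 was at 546.9 to 2160 CPM. Both genes were also high in some wells with Ackr4. A pool A well held Cd34 at 937.1, Aqp1 at 3170 and Ackr4 at 1477 CPM. A pool B well held them at 2604, 428.5 and 391.5 CPM.

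**Figure D3:**
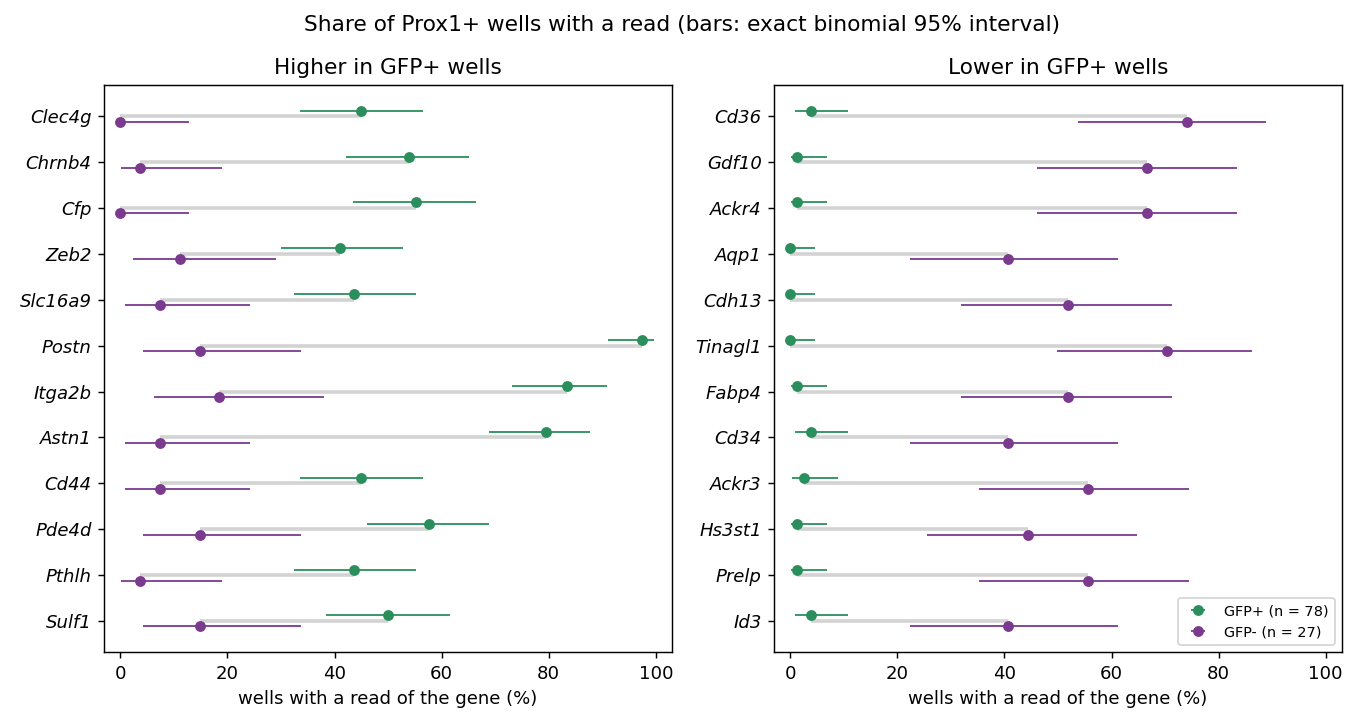
Share of Prox1+ wells with a read, in percent on the horizontal axis, for the 12 genes most above (left) and the 12 most below (right) in GFP+ wells under the naming rule. Points are GFP+ (green, 78 wells) and GFP- wells (purple, 27 wells), bars are exact binomial 95% intervals and grey lines join the gates. Postn reaches 97.4% of GFP+ wells, and all 12 genes on the right stay at or under 3.85% of GFP+ wells.

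Genes of the sinus floor and of the sinus ceiling separated. Of 10 floor genes, all measured, 7 were at least 2-fold higher in GFP+ wells and 1 lower, with a median log2 ratio of 2.71, or 6.66 without pool B. Over all measured genes 16.8% were higher and 16.5% lower. Every list count below is to be read beside these shares, and a list near them does not differ from genes in general. Coch, a secreted protein gene, ran from 0 to 14280.3 CPM with a median of 361.7 in GFP+ wells and was at 2473 CPM (2462 to 2485) in GFP+ wells and 292.3 CPM (285.3 to 299.4) in GFP- wells (log2 ratio 3.08). It had reads in 50 of 78 GFP+ and 2 of 27 GFP- wells. Bmp2, a growth factor gene, was at 640.9 and 74.7 CPM (3.08), the chemokine gene Ccl20 at 495.1 and 77.3 CPM (2.66) and the scavenger receptor gene Msr1 at 619.6 CPM in GFP+ wells (2.60). Csf1, the ligand of the CSF1 receptor, was at 710.4 and 359.6 CPM (0.98), just inside 2-fold, and Anxa2, which encodes annexin A2, at 65 and 1099.6 CPM (-4.06). Glycam1, a secreted mucin gene, was within 2-fold by sum at 2695 and 1505 CPM, with -0.42 in pool A and 3.11 in pool B, but had reads in 76 of 78 GFP+ and 9 of 27 GFP- wells.

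Of 10 ceiling genes 9 were measured, and all 9 were at least 2-fold lower in GFP+ wells, with a median of -4.30. Bmp4, a growth factor gene, had 0 reads in GFP+ wells and was at 99.7 CPM in 6 GFP- wells, at least 2526-fold lower. Cav1, the caveolin-1 gene, was at 58.2 and 1169 CPM (-4.30), Ednrb, an endothelin receptor gene, at 36.9 and 490.9 CPM (-3.70) and Btnl9, a butyrophilin-like gene, at 2.88 and 139.3 CPM (-5.18). Each GFP+ well held 4 to 9 of the 10 floor genes at 10 CPM or more (median 7) and 0 to 5 ceiling genes (median 1). The GFP- wells held 1 to 7 floor genes (median 2) and 0 to 8 ceiling genes (median 5), so the gates overlapped in both counts. These lists were drawn up with earlier results of these data known, and their direction is not independent evidence.

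**Figure D4:**
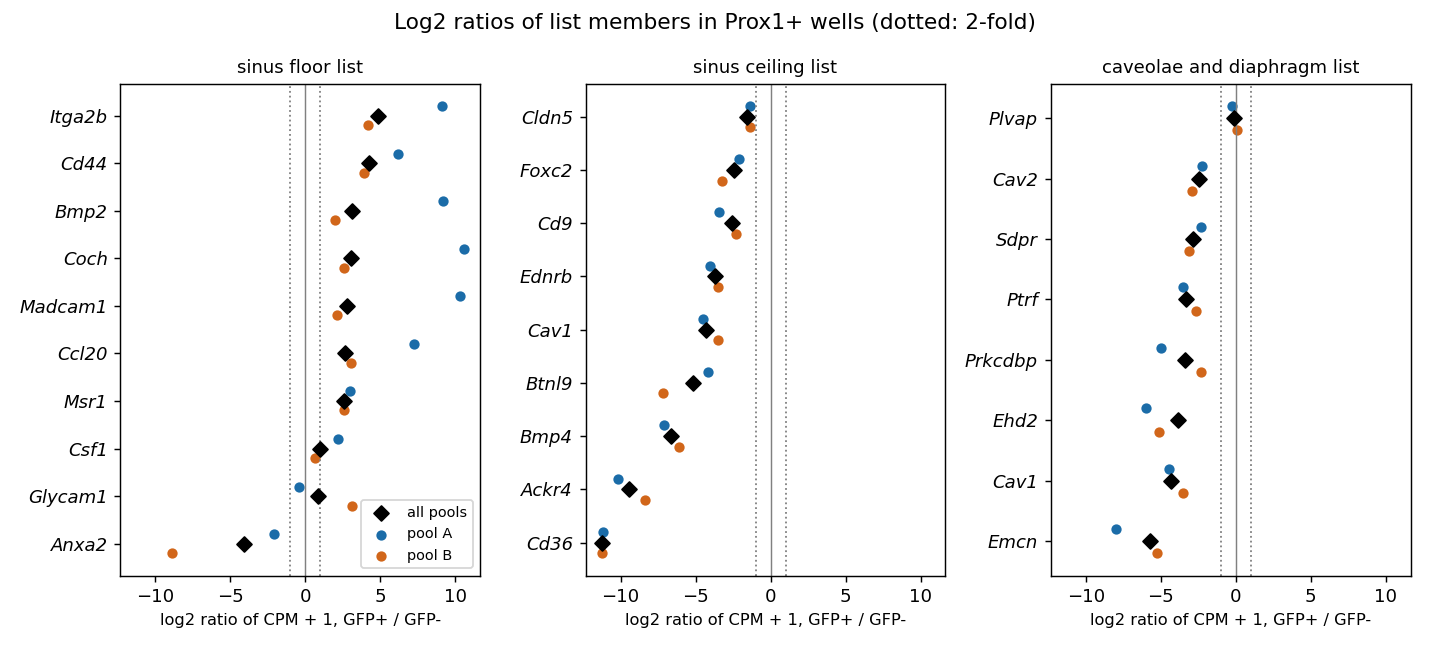
Log2 ratios of CPM plus 1, GFP+ over GFP- wells, on the horizontal axis for the measured genes of the sinus floor, sinus ceiling, and caveolae and diaphragm lists. Black diamonds are all pools, blue and orange points pools A and B, and dotted lines 2-fold. In both pools every ceiling gene lies left of the line at 2-fold lower, whereas floor genes such as Madcam1 (10.32 in pool A and 2.13 in pool B) are further apart in pool A. The size of the pool A value of Madcam1 depends on the pseudocount.

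Genes of lymphatic identity lay within 2-fold in 7 of 12 measured cases (of 14 listed), with 1 at least 2-fold higher and 4 lower, and a median of -0.29. For all measured genes the shares were 16.8% higher and 16.5% lower. Prox1, which chose the wells, is 1 of the 7 and says nothing on shared identity. The VEGF-C receptor gene Flt4 was at 172.8 and 130.4 CPM (0.40), and Pdpn, the podoplanin gene, at 87.2 and 70.7 CPM (0.30). Lyve1, a hyaluronan receptor gene, was the 1 higher gene, at 667.1 CPM (661.3 to 672.9) in GFP+ wells and 202.3 CPM (196.4 to 208.2) in GFP- wells (1.72), with reads in 62 of 78 GFP+ and 6 of 27 GFP- wells. Mmrn1, the multimerin-1 gene, was lower at 84.2 CPM (82.1 to 86.3) in GFP+ wells and 768.6 CPM (757.2 to 780.1) in GFP- wells (-3.18), and Thy1, Fgl2 and Sox18 were the other lower genes at -5.95, -3.46 and -1.78, with Sox18 at 0.0565 in pool B. Among 14 transcription factor genes 2 were higher, Zeb2 and Foxc1 (1.04), and 5 lower, among them Klf2 and Klf4, which flow is known to induce, at -3.92 and -3.42, and Foxc2 and Nfatc1, known from valves, at -2.44 and -2.50.

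Genes of other sinus and vessel regions went both ways. Of 10 medullary and cortical sinus genes 5 were measured, with Clec4g, Lyve1 and Kcnj8 (1.24) higher and Stab2 lower. Stab2, a hyaluronan scavenger receptor gene, ran from 0 to 575.7 CPM with a median of 0 in GFP+ wells and from 0 to 4114 CPM with a median of 772.5 in GFP- wells, with at least 10 CPM in 10 and 18 wells, and its log2 ratio was -4.17. Its relative Stab1 was at 462.2 and 722.3 CPM (-0.64). The macrophage-type receptor gene Marco was not measured, with reads in 3 GFP+ wells. Of 10 valve and collecting vessel genes 2 were higher, Clu (24614 and 8802 CPM, 1.48) and Cldn11 (269.5 and 120.9 CPM, 1.15), and 4 lower. Within the GFP+ gate, 33 wells held Clec4g and 47 Coch at 10 CPM or more, 19 held both and 61 at least 1 of them.

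Genes of the caveolae and diaphragm list, which also holds Emcn, were lower as a group. Of 8 measured, 7 were at least 2-fold lower in GFP+ wells, with a median of -3.35. Emcn, the endomucin gene, was at 1.63 and 140.4 CPM (-5.75), and the coat genes Ehd2, Prkcdbp, Ptrf, Sdpr and Cav2 lay between -3.82 and -2.47. Plvap, whose protein builds the diaphragms of endothelial pores and caveolae, did not follow them, at 2323 CPM (2312 to 2333) in GFP+ wells and 2506 CPM (2485 to 2527) in GFP- wells (-0.11), with reads in 78 of 78 GFP+ and 25 of 27 GFP- wells. Of 12 genes of endothelium in general, 8 were lower and 0 higher (median -1.49), with Esam, an adhesion gene, at -5.38 and Robo4, a guidance receptor gene, at -4.67, whereas Cdh5, Kdr, Erg and Ecscr lay within 2-fold. Of 15 measured matrix genes, 9 were lower and Postn alone was higher (median -1.19). Igfbp7 was at 300.1 and 2509.9 CPM (-3.06), and the perlecan gene Hspg2 at -2.12. Integrin genes had 2 higher, Itga2b and Itgav (1.73), and 5 lower of 10 (median -1.19), and junction genes had 1 higher and 4 lower of 11 (median -0.82). These stand beside 16.8% of all measured genes higher and 16.5% lower.

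Among signalling genes, receptors of the angiopoietin system were lower together, with Tie1 at -1.38, Tek at -2.56 and the phosphatase gene Ptprb at -2.40, all 3 of the measured members. BMP genes had 2 higher and 5 lower of 7 (median -1.26). The ligand genes Bmp2 and Bmp4 lay on opposite sides, at 3.08 and -6.65, and Eng, the endoglin co-receptor gene, was at 213.2 and 968.7 CPM (-2.18). Notch genes had 0 higher and 4 lower of 7 (median -1.11), among them Notch1 at -1.68, with the ligand gene Dll4 at 0.79. Of 6 measured VEGF genes, 2 were lower and 0 higher (median -0.03). Flt1, 1 of the 2, was at -1.89 with all wells and at 3.23 without the 2 wells high in both Cd34 and Flt1, so its direction rests on them. Guidance genes had 2 higher, the netrin receptor gene Unc5c (79.3 and 1.95 CPM, 4.77) and Robo1 (3.36 with all pools but -0.70 in pool B), and 6 lower of 12 (median -1.29), among them the semaphorin gene Sema3d (155.8 and 466.9 CPM, -1.58) and the receptor gene Plxnd1 (-3.53).

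Immune genes were counted by kind, beside 16.8% of all measured genes higher and 16.5% lower. Of 11 measured chemokine and receptor genes, the 5 higher ones were the ligand genes Ccl19 (2.10, but -1.09 in pool B), Ccl20, Cxcl1, Cxcl10 and Cxcl16. The 5 lower ones were the ligand gene Cxcl12 and all 4 atypical receptor genes, Ackr1 (-3.80), Ackr2 (-2.39), Ackr3 (-7.11) and Ackr4. Cxcl1, a neutrophil attractant gene, was at 504.1 and 127.7 CPM in 42 and 4 wells (1.97), and Cxcl16 at 151.1 and 27 CPM (2.44). Cxcl12 was at -2.90 with all wells, at 4.00 with at least 10 Prox1 reads and at 3.73 without pool A. The median of these genes was -0.60, and 0.97 without the 2 wells high in Cd34 and Flt1. Leukocyte adhesion genes had 4 higher, Madcam1, Vcam1 (1373 and 371.3 CPM, 1.88), Alcam (3.54) and Cd44, and 2 lower of 12 (median 0.75), with Icam1 at -0.46.

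Complement genes had 3 higher and 2 lower of 10 (median 0.56), beside 16.8% and 16.5% of all measured genes. C3, the central complement gene, ran from 0 to 6277 CPM with a median of 2001 in GFP+ wells and from 0 to 4106 CPM with a median of 0 in GFP- wells, and was at 2518 CPM (2507 to 2529) in GFP+ wells and 503.8 CPM (494.6 to 513.2) in GFP- wells (2.32). Cd55, whose protein shields cells from complement, was at 4840.2 and 1119 CPM (2.11), with reads in 78 of 78 GFP+ and 20 of 27 GFP- wells, and Serping1 and Cd59a were lower at -1.70 and -5.07. Immune regulation genes had 4 higher and 4 lower of 14 (median 0.58). The alarmin gene Il33 was at 602.8 and 134.95 CPM in 65 and 7 wells (2.15), and Cd274, which encodes PD-L1, at 126.2 and 34.3 CPM in 38 and 4 wells (1.85). Nos3, the endothelial nitric oxide synthase gene, was at 6.36 and 122.4 CPM (-4.07) and Tnfrsf11a, which encodes RANK, at 43.5 and 138.2 CPM (-1.64). S1pr1, a receptor gene for sphingosine-1-phosphate, was at 745.7 and 540.3 CPM (0.46) with reads in every well.

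MHC class I genes did not separate the gates, with 0 of 9 at least 2-fold apart by both measures and a median of 0.23. Of 5 measured MHC class II genes Cd74, the invariant chain gene, alone was higher, at 2305 and 713.9 CPM (1.69), and the other 4 lay between -0.72 and 0.49, with H2-DMb1 at -0.63 in pool A and 5.95 in pool B. The class II median was 0.45, with 2 of 5 higher (median 1.91) with at least 10 Prox1 reads, 4 of 5 higher (2.15) without pool A and 1 higher and 1 lower (-0.19) without pool B. Interferon response genes had 0 higher and 1 lower of 9 (median -0.46). Scavenger receptor and lectin genes had 3 higher and 4 lower of 11 (median -0.64), beside 16.8% and 16.5% of all measured genes. Of 5 measured fatty acid genes, 4 were lower (median -1.64), Cd36, Fabp4, Fabp5 (-1.12) and Apoe (-1.64, but 0.67 without pool A). Of 11 neuroendocrine-type genes 2 were measured and both were higher, Chrnb4 and the secretory granule gene Scg5 (125.5 and 3.95 CPM, 4.68), median 6.21. Of 10 proliferation genes 2 were measured, both within 2-fold (median -0.04). Dissociation stress genes had 2 higher and 1 lower of 11 (median -0.41), the 2 being Hspa1a and Hspa1b, near-identical copies between which reads may be split.

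Markers of other cell types differed between the gates by list. Of 13 blood endothelial genes 9 were measured, and 8 of these were lower in GFP+ wells (median -5.83, or -6.02 with genes at 0 reads set at their bound). Their summed level was 88.1 to 4793 CPM in GFP+ wells (median 2128) and 0 to 26248 CPM in GFP- wells (median 2669). Plvap alone had a median of 2088 CPM over the GFP+ wells. The GFP+ wells had 0 reads of Ly6c1, Sox17, Vwf and Aqp1, and the GFP- wells 0 of Sox17. The 3 GFP- wells with 1 Prox1 read and high Cd34 held 7, 10 and 9 of the 13 genes at 10 CPM or more, and the other GFP- wells 0 to 5. With at least 10 Prox1 reads 5 blood genes were measured and 4 were lower (median -6.13), and Cd34, Aqp1 and Podxl were at least 2-fold lower in every setting tried. The part of these wells in the other results was not tested beyond leaving them out.

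High endothelial venule genes had 1 higher, Madcam1, and 3 lower of 7 (median -0.40), but 3 higher and 2 lower (median 0.97) with at least 10 Prox1 reads, 4 and 2 (median 1.05) without pool A and 3 and 1 of 5 (median 2.63) without the 2 wells high in Cd34 and Flt1. At least 3 of the 10 listed genes reached 10 CPM in 62 of 78 GFP+ and 6 of 27 GFP- wells, with summed levels of 486.5 to 17803 CPM in GFP+ wells (median 3800) and 0 to 37306 CPM in GFP- wells (median 317.6). Fut7 was at 0 in GFP+ wells and Sele at 0 in GFP- wells. Of 12 macrophage genes 3 were measured and all 3 were higher in GFP+ wells (median 3.12). These were Ctss, a protease gene (490.5 and 55.5 CPM in 59 and 3 wells, 3.12), Lyz2 (75.7 CPM in 8 wells and 0 reads, at least 568.5-fold higher) and Csf1r (1.85, but 0.91 with pools weighted equally). Over all 12 genes, 10 had a read in GFP+ wells and 5 in GFP- wells, and the list summed to 0 to 4031 CPM in GFP+ wells (median 322.2) and 0 to 1553 CPM in GFP- wells (median 0). At least 3 of its genes reached 10 CPM in 2 GFP+ and 0 GFP- wells. Spi1 had reads in 1 GFP+ well, Fcer1g in 3 GFP+ and 1 GFP- wells and Cd68 in 3 and 2. Tyrobp and Itgam were at 0 in both gates, and Adgre1 had 1 read and C1qa, C1qb and C1qc 2 reads each in the GFP+ gate. C1qa also had 2 reads in the GFP- gate.

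Haematopoietic genes had Cd53 higher (1.89) and Arhgdib lower (-3.63) of 4 measured (median 0.74), with summed levels of 0 to 1837 CPM and 0 to 701.6 CPM and Cd52 at 0 in both gates. Platelet genes had Itga2b and Pf4 (40.9 and 9.54 CPM, 1.99) higher and Itgb3 lower (-1.91) of 3 measured (median 1.99), with sums of 0 to 2879 CPM and 0 to 434.3 CPM and the defining genes Gp9 and Gp1bb at 0 in both gates. Fibroblastic reticular cell and pericyte genes had Rgs5 (269.97 and 18.9 CPM, 3.76) and Ccl19 higher and Dcn lower (-4.67, but 1.36 in pool B) of 3 measured (median 2.10). Their sums were 0 to 2256 CPM and 0 to 929.2 CPM, with Pdgfra, Pdgfrb, Col1a2, Col3a1 and Lum at 0 in both gates. Of 7 dendritic cell genes 2 were measured, both within 2-fold (median -0.87), with sums of 0 to 2813 CPM and 0 to 1202 CPM and Itgax, Flt3 and Ccr7 at 0 in both gates. No T and B cell, erythroid or epithelial gene was measured, and 9 of 10 T and B cell genes were at 0 in both gates.

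The GFPlow gate, labelled as potential Csf1r lineage cells, gave 59 Prox1+ wells from pools B, C and D, and pool D held no well of the other gates. At 10 CPM or more, 35 of the 59 held Madcam1, 37 Itga2b, 5 Ackr4 and 0 Pkhd1l1. No well held a gene of both pairs, and 7 held none of the 4. Stab2 reached 10 CPM in 27 of the 59, and Cd36 in 4. Summed levels in this gate were 430.4 CPM for Madcam1, 516.9 for Itga2b, 1405 for Postn, 106.7 for Ackr4 and 264.6 for Cd36. For all 5 genes these lay between the levels of the GFP+ and GFP- wells, with no test of the difference.

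Over all 78 GFP+ and 27 GFP- wells, the genes whose per-well CPM followed Madcam1 most closely, among 4826 with reads in at least 20% of wells, were C3 (Spearman's rho 0.62), Trf (0.61), Serpina3n (0.61), Clu (0.60) and Postn (0.56). Those most like Ackr4 were Cd36 (0.87), Prss23 (0.81), Parm1 (0.73), S100a10 (0.71) and Trp53i11 (0.67). The wells of a gate share its sort and each well its depth, so these values are a description in which the gate takes part. Prss23, a protease gene, was at 39.5 CPM (38.1 to 41) in GFP+ wells and 1575 CPM (1559 to 1592) in GFP- wells, with at least 10 CPM in 5 and 20 wells. Serpina3n, a protease inhibitor gene, was at 1429 CPM (1421 to 1438) in GFP+ wells and 306.5 CPM (299.3 to 313.8) in GFP- wells, with at least 10 CPM in 72 and 8 wells.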

How the data were processed

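Per the labels' protocols, cells were sorted 1 to a well and their cDNA was made by SMART-seq2 with 20 amplification cycles. The authors deposited whole-number read counts per gene, not normalised. Tools named are Subread 1.4.6-p2, STAR 2.4.1b and FastQC 0.11.4, with the mm10 build, per the submitters' processing notes. The annotation and strand setting are not given in the sources used here, so overlapping genes cannot be told apart. Of 51826 table rows, 92 shared a symbol and were summed, and 0 columns lacked a sample. PCR reads without molecular identifiers are not independent molecules.

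From these counts, CPM, ratios with a pseudocount of 1 CPM, exact Poisson and Clopper-Pearson 95% intervals and shares after thinning (76 GFP+ and 26 GFP- wells held 100000 reads) were computed with Python 3.11.15, numpy 2.4.6, pandas 2.3.3 and scipy 1.17.1. No label names an animal, so each gate is 1 sample and no difference between gates was tested. No doublet caller was run on singly sorted wells, and no cells were clustered. The step that calls 2-fold genes was checked on simulated counts, only for changes well above 2-fold in genes well above the measured level. It was not checked for 2-fold changes, for low genes or for calls among unchanged genes. Coordinates of genes were read from the GENCODE M21 annotation of GRCm38, which mm10 also names.

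The members, the 38 lists (349 genes) and the rules were chosen with earlier results of these data known. Named genes were the 12 highest and 12 lowest ratios under the narrower rule given in the results, without predicted, ribosomal or mitochondrial genes, up to 4 genes per list by size of ratio, and Prox1, Madcam1, Itga2b, Ackr4, Pkhd1l1, Pecam1, Ptprc and Csf1r always. Cdh5, Kdr, Erg, Ecscr, Icam1, S1pr1 and a few other list members were named after their values were seen. The 5 genes most like Madcam1 and Ackr4 were taken by Spearman's rho. Alternatives were other Prox1 minimums, pseudocounts, filters, scalings, thinning, each pool left out, pools weighted equally and wells high in Cd34 and Flt1 left out.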

Additional observations from a re-analysis of the deposited data

How the results depend on the processing

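No test was run, so no paired analysis was made, and the replicate numbers are names in accession order and pair no wells. Ratios within pools A and B, which both gates share, stand beside the results. The floor list median of 2.71 ran from 2.30 to 6.66 when 1 pool was left out, the number of genes higher from 1554 to 2370, and with no filter on low genes 3562 were higher and 2516 lower. The share of GFP+ wells with an Ackr4 read, 1.28%, ran from 0% to 2.17% over the pools left out and was 0% when thinned or counted at 10 CPM or more, a setting chosen after seeing the data. That of Pkhd1l1, also 1.28%, ran from 0% to 2.17% over the pools left out and was 0% when thinned, at 10 CPM, with at least 10 reads or 10 CPM of Prox1, or under the stricter cell filter. The share of GFP- wells with Madcam1, 22.2%, ran from 6.67% to 38.5%. Genes past 2-fold that changed sign included Cxcl12 (4.08 at 10 CPM of Prox1, 4.00 at 10 reads, and -4.49 to 3.73 over the pools left out) and Flt1 (3.39, 3.31 and -4.12 to 3.58, and 3.23 without the wells high in Cd34 and Flt1). Gcnt1 was at 0.051 at 10 CPM of Prox1. Over the pools left out, Apoe ran from -2.63 to 0.67, Ly6a from -7.67 to 0.42, Itga3 from -5.90 to 2.47 and Sphk1 from -3.75 to 0.32. Coro1a, within 2-fold at 0.59, was at -1.21 without pool B. The cause was not tested. The median of all genes moved to 0.17 without pool B and to 0.30 with pools weighted equally. With 27 GFP- wells, a gene at 0 there could still have reads in up to 11.1% of such wells (3 of 27), or 12.8% by the exact binomial interval.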
